A study of Homo sapiens with 12 samples.

Results

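The genes of lipid uptake, storage and export in macrophages were examined in 2 human acute myeloid leukemia cell lines, MOLM-13 and THP-1. Their members were the rows of the expression table with the gene symbols PPARG, NR1H3, LPL, FABP4, FABP5, PLIN2, ABCA1, ABCG1, APOE and APOC1, and all 10 were found among its 20030 rows. mRNA-seq had been performed on 4 groups of 3 libraries each: MOLM-13 control, MOLM-13 JOA, THP-1 control and THP-1 JOA. Jiyuan oridonin A (JOA) is an ent-kaurene diterpenoid from a plant of the genus Isodon, given at 0.5 μM to MOLM-13 cells and at 2 μM to THP-1 cells, while control cells received its solvent DMSO, all for 48 h per the labels. A figure legend of the study gives a longer incubation, and the time was taken from the labels. Both lines carry a rearranged MLL gene, and MOLM-13 cells also carry an internal tandem duplication of FLT3, which is wild type in THP-1 cells. Both are established cultures of leukemic cells of the monocytic lineage, and no step that turns such cells into macrophages is given in the labels. The study states that its experiments were repeated, but neither it nor the labels tie the 3 libraries of a group to separate cultures, so the p-values measure the spread between these libraries, which may be technical.

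Macrophages take up lipids from lipoproteins, keep the surplus as cholesteryl ester and triglyceride in lipid droplets, and hand cholesterol back to acceptors outside the cell. Families of nuclear receptors read the lipid load and adjust this traffic, each together with a retinoid X receptor: the peroxisome proliferator-activated receptors (PPARs), which bind fatty acids and their derivatives, and the liver X receptors (LXRs), which bind oxidized cholesterol. PPARG and FABP4 are best known from fat cells and are also switched on as monocytes become macrophages, whereas ABCA1, ABCG1 and APOE are classical targets of the LXRs.

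The values were FPKM, fragments counted on a gene, divided by its length and by the mapped total of each library, so that levels of different genes can be set side by side. They summed to 314128 to 325023 in the MOLM-13 libraries and 291127 to 304345 in the THP-1 libraries, and the correlation of log2 values between libraries of a line was 0.990 to 0.995 in MOLM-13 and 0.987 to 0.993 in THP-1 cells. Total depth cannot be read from FPKM, so no counting interval is given. The 12 monocytic marker genes had a mean of at least 1 FPKM in every group, with summed levels of 3188 to 5102 FPKM in MOLM-13 and 1587 to 2247 FPKM in THP-1 libraries. These sums mostly reflect LYZ and AZU1, with means of 2473 and 1059 FPKM in MOLM-13 control and 1032 and 511 FPKM in THP-1 control cells. Single markers differed either way between MOLM-13 and THP-1 control cells, as with CD33 (21.4 and 5.78 FPKM) and CD68 (57.4 and 131 FPKM). Of 8 adipocyte markers, 0 reached a mean of 1 FPKM in any group, their summed level lay between 0.218 and 0.807 FPKM, and ADIPOQ, LEP and CIDEA were listed at 0 in every library. Of 9 markers of other blood cells, 1 reached a mean of 1 FPKM in MOLM-13 and 0 in THP-1 cells, with sums of 0.118 to 3.88 FPKM over all libraries.

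On the human genome build GRCh38, PPARG lies on chromosome 3 (12287368 to 12434356, plus strand) and NR1H3 on chromosome 11 (47248300 to 47269032, plus strand). LPL (19901717 to 19967259, plus strand), FABP5 (81280363 to 81284777, plus strand) and FABP4 (81478419 to 81483263, minus strand) are on chromosome 8, where 193641 bp separate the latter pair. PLIN2 (19108375 to 19149290) and ABCA1 (104781002 to 104928237) are on the minus strand of chromosome 9, and ABCG1 is on the plus strand of chromosome 21 (42199689 to 42297244). APOE (44905754 to 44909393) and APOC1 (44914247 to 44919349) are neighbours on the plus strand of chromosome 19, separated by 4853 bp.

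In control cells the lines differed in most of these genes. THP-1 cells carried more transcript of both nuclear receptors, of LPL, FABP4 and PLIN2, and of both apolipoproteins, while MOLM-13 cells carried more FABP5. The lines were compared by limma on log2(FPKM + 0.1), a scale that understates the change of low genes. To be called, a gene needed an adjusted p (Benjamini-Hochberg, over all genes tested) under 0.05 and a log2 fold change of 0.58 or more in size. Of the 10 genes, 9 passed the filter on low values (a mean of at least 0.1 FPKM over the 6 libraries). Of these, 8 were called, with 7 higher and 1 lower in THP-1 cells. FABP4 and LPL had MOLM-13 means of 0 and 0.0233 FPKM and passed the filter through their THP-1 values alone. For them the filter thus left only a higher THP-1 mean possible. Fitted among all genes not at 0 throughout, 8 members were again called, FABP4 (adjusted p = 0.0219 by limma) and LPL among them. LPL had values above 0 in both lines there. FABP4, at 0 in every MOLM-13 library, entered this fit too through its THP-1 values alone. Its direction was thus fixed in both fits, and its call is no separate support for a difference. The lines differed widely in all genes: 44.0% of 12635 genes tested were called, 25.0% higher and 19.0% lower in THP-1 cells. In bulk libraries, fewer cells with a transcript and less of it in each cell cannot be told apart. The values of the lines did not overlap for the same 8 genes and for 74.8% of all genes tested.

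APOE, which coats lipoproteins and is secreted by macrophages, was at 24.9 ± 2.61 FPKM (SD, n = 3) in THP-1 control cells and at 0.308 ± 0.228 FPKM in MOLM-13 control cells. This was an 80.9-fold ratio of means and a log2 difference of 6.14 (SE 0.43, adjusted p = 5.10e-06 by limma). APOC1, a small apolipoprotein encoded beside APOE, differed far less, with 12.2 ± 1.50 FPKM in THP-1 and 6.57 ± 0.917 FPKM in MOLM-13 cells (log2 difference 0.88, SE 0.12, adjusted p = 0.000245 by limma). LPL, the lipase that releases fatty acids from lipoprotein triglyceride, was at 5.56 ± 0.903 FPKM in THP-1 cells and at 0.0108, 0.0355 and 0.0236 FPKM in the 3 MOLM-13 control libraries. Divided by the smallest of them and corrected for relative depth, these MOLM-13 values came to 1, 3.03 and 1.89, so that they may stand for a few fragments each. Their log2 difference to THP-1 cells was 5.51 (SE 0.16, adjusted p = 7.33e-08 by limma), and its size depends on the pseudocount.

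FABP5, a carrier of fatty acids inside the cell, had the highest level of the 10 genes in both lines. It was at 443 ± 49.1 FPKM in MOLM-13 control cells, above 99.3% of the genes with a value in that group, and at 143 ± 3.48 FPKM in THP-1 control cells, above 98.1%. MOLM-13 cells thus had 3.10 times the THP-1 level (log2 difference of THP-1 against MOLM-13 -1.63, SE 0.08, adjusted p = 9.11e-07 by limma). FABP4, its close relative and the carrier typical of adipocytes and macrophages, was listed at 0 in all 6 MOLM-13 libraries and averaged 0.292 ± 0.244 FPKM in THP-1 control cells. The FABP4 call (adjusted p = 0.0107 by limma) carried a fitted log2 difference of 1.73 that depends on the pseudocount, and it fell to 0.35 with a pseudocount of 1.

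PLIN2, which coats lipid droplets, was at 34.8 ± 8.25 FPKM in THP-1 and 10.4 ± 1.17 FPKM in MOLM-13 control cells (log2 difference 1.71, SE 0.16, adjusted p = 2.74e-05 by limma). The receptors were low in both lines. PPARG was at 1.52 ± 0.438 FPKM in THP-1 and 0.399 ± 0.0526 FPKM in MOLM-13 cells (log2 difference 1.67, SE 0.20, adjusted p = 0.000124 by limma). NR1H3, which encodes LXRα, was at 1.03 ± 0.227 FPKM in THP-1 and 0.291 ± 0.0911 FPKM in MOLM-13 cells (log2 difference 1.54, SE 0.22, adjusted p = 0.000280 by limma).

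The sterol exporters were not called between the lines. ABCA1, which passes cholesterol and phospholipid to lipid-poor apolipoprotein A-I, was at 0.619 ± 0.0896 FPKM in THP-1 and 0.497 ± 0.0988 FPKM in MOLM-13 control cells. These values overlapped, the log2 difference was 0.28 (95% interval -0.13 to 0.68, adjusted p = 0.195 by limma), and under quantile normalization its sign turned to -0.45 (adjusted p = 0.0335). ABCG1, which loads cholesterol onto mature high-density lipoprotein, stayed below 0.03 FPKM in every library.

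**Figure D1:**
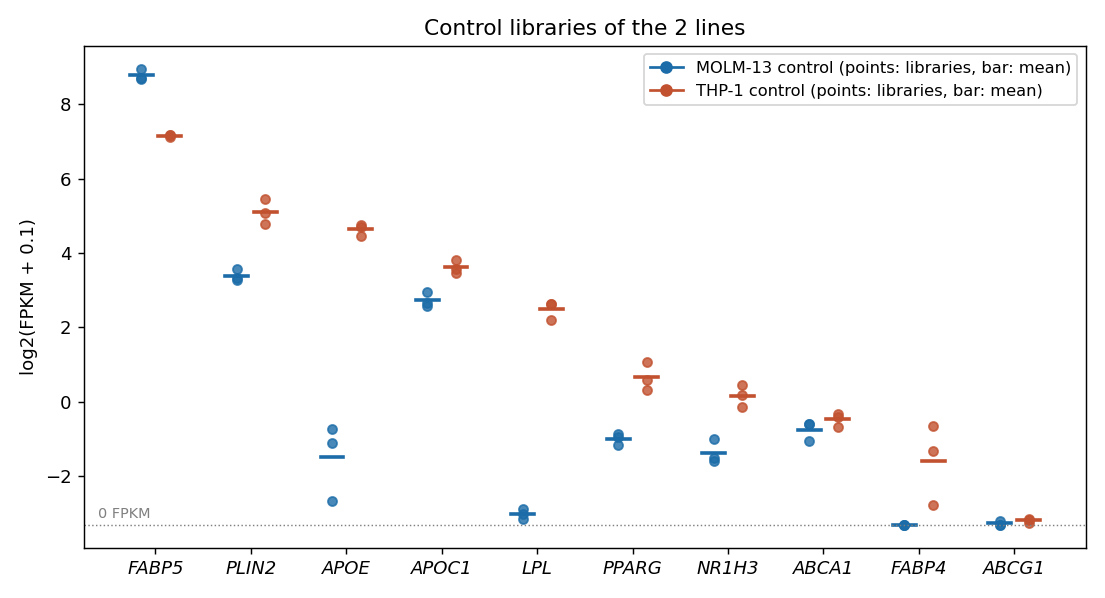
Level of each gene in the control libraries of MOLM-13 (blue) and THP-1 cells (orange), as log2(FPKM + 0.1) with genes ordered by their THP-1 mean; points are libraries, bars are means of 3, and the dotted line is 0 FPKM. APOE and LPL show the widest gaps between the lines, FABP5 is the gene with the higher level in MOLM-13 cells, and the points of ABCA1 and ABCG1 overlap.

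Within THP-1 control cells the order of levels was FABP5, PLIN2, APOE, APOC1, LPL, PPARG, NR1H3, ABCA1, FABP4 and ABCG1. Libraries of neighbours in this order overlapped between PPARG and NR1H3 and between ABCA1 and FABP4, and not between the others. Within MOLM-13 control cells the order was FABP5, PLIN2, APOC1, ABCA1, PPARG, APOE, NR1H3, LPL, ABCG1 and FABP4. There the ranges of ABCA1, PPARG, APOE and NR1H3 ran into each other in turn, as did those of ABCG1 and FABP4. With JOA the first 5 places kept their order in both lines.

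The effect of JOA was then tested in each line. In MOLM-13 cells, 0 of the 7 genes that passed the filter were called, against 0% of 11693 genes tested, and the replicate number as a block gave again 0 members and 0% of genes. Over all these genes, 481 had an unadjusted p under 0.05, and 1295 with the block. In THP-1 cells, 0 of 9 genes past the filter were called, against 0.134% of 12712 genes tested, and 0 with the block, against 1.27% of genes. Control and JOA libraries with the same number deviated together, so both fits are given where they part.

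At an adjusted p under 0.05 alone, without the fold threshold, the block passed 2 of the 10 genes in THP-1 cells, PLIN2 and PPARG, both higher with JOA. This criterion passed 8.06% of all genes tested in THP-1 cells (5.37% higher and 2.69% lower) and 0% in MOLM-13 cells. It was chosen after the data were seen.

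**Figure D2:**
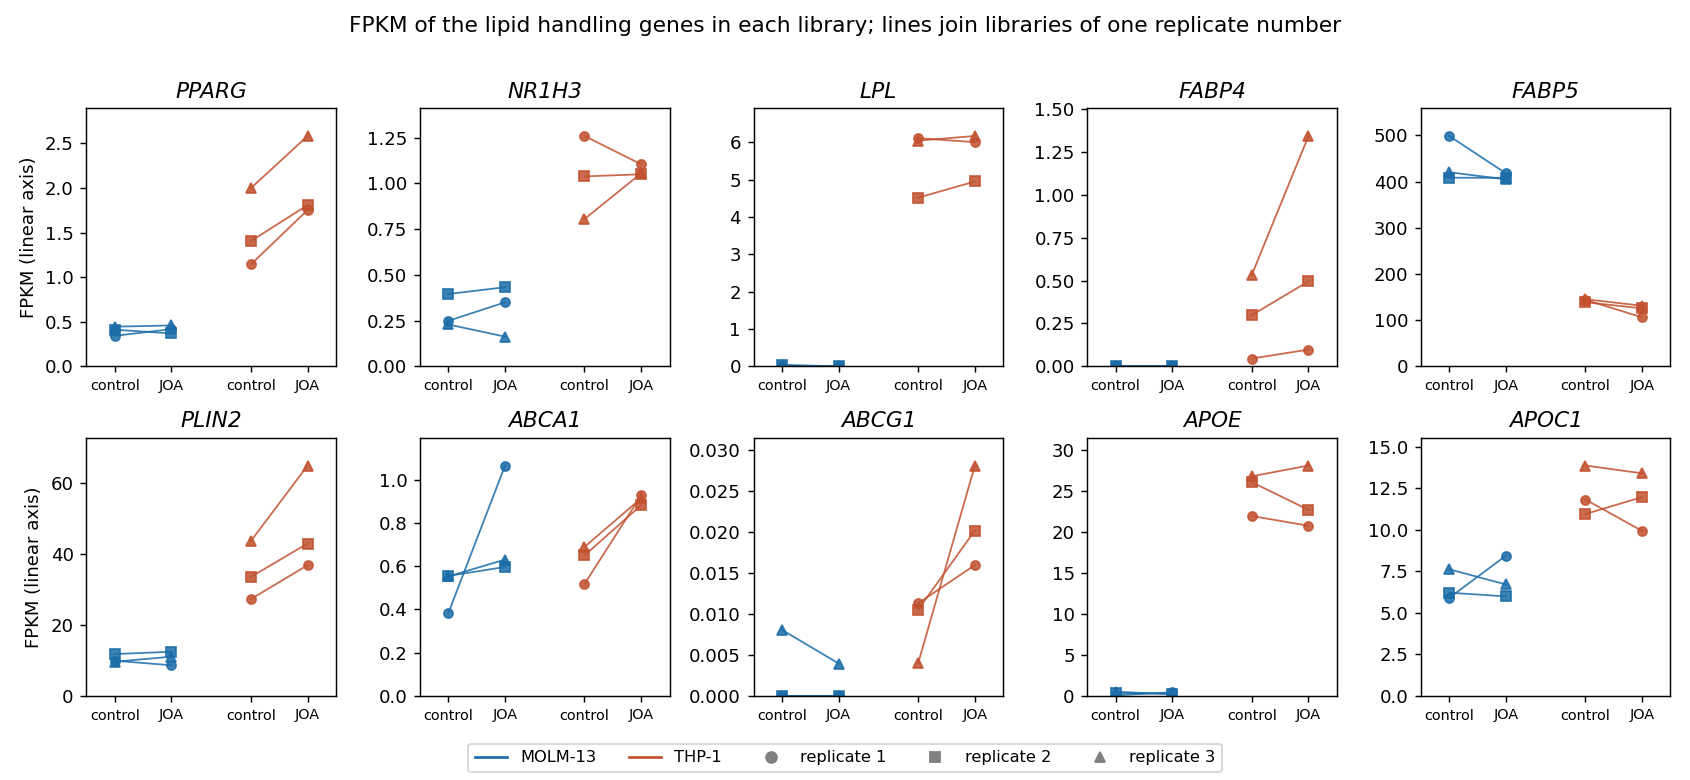
FPKM on a linear axis for each gene in the 12 libraries, with MOLM-13 in blue, THP-1 in orange, a symbol for each replicate number, and lines joining control and JOA libraries of one number. In THP-1 cells all 3 lines go up for PPARG, FABP4, PLIN2, ABCA1 and ABCG1 and down for FABP5; in MOLM-13 cells all 3 go up for ABCA1 and down for FABP5, where the line of pair 2 is nearly flat, and for LPL, which ends at 0.

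PPARG, the fatty acid receptor, was at 1.14, 1.40 and 2.00 FPKM in THP-1 control libraries 1, 2 and 3 and at 1.75, 1.81 and 2.58 FPKM in the JOA libraries with the same numbers. These groups overlapped, since control library 3 lay above JOA libraries 1 and 2, but each JOA library was above its own partner. The ratios of JOA to control were 1.53, 1.29 and 1.29. The log2 fold change was 0.43 with an SE of 0.22 and an adjusted p of 0.369 without the block, and with an SE of 0.09 and an adjusted p of 0.0395 with it (limma). In MOLM-13 cells PPARG was at 0.342, 0.411 and 0.445 FPKM in control and 0.417, 0.368 and 0.459 FPKM in JOA libraries, which overlapped, with a log2 fold change of 0.05 (95% interval -0.34 to 0.43).

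NR1H3, the other receptor, passed the test in neither line. In THP-1 cells it was at 1.26, 1.04 and 0.805 FPKM without and 1.10, 1.05 and 1.06 FPKM with JOA (log2 fold change 0.06, 95% interval -0.30 to 0.43). In MOLM-13 cells it was at 0.249, 0.395 and 0.229 FPKM in control and 0.350, 0.432 and 0.162 FPKM in JOA libraries, with a log2 fold change of 0.05 (95% interval -0.64 to 0.74). The groups overlapped in both lines, and 1 of 3 pairs went the other way in each.

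For lipoprotein lipase, the THP-1 libraries gave 6.12, 4.52 and 6.05 FPKM in control and 6.01, 4.95 and 6.17 FPKM with JOA. Library 2 was the lowest of both groups, and the log2 fold change of LPL was 0.04 (95% interval -0.27 to 0.36, adjusted p = 0.905 by limma). In MOLM-13 cells LPL was listed at 0 in all 3 JOA libraries, below the control values given above, which themselves lay near the smallest step of the table. LPL did not pass the filter there, its adjusted p by limma, among all genes not at 0 throughout, was 0.993, and the exact two-sided permutation test gave p = 0.1, the smallest that 3 against 3 libraries allow.

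FABP4 had the largest SE of the 10 genes in THP-1 cells and was at 0.0453, 0.298 and 0.533 FPKM in control libraries and at 0.0975, 0.496 and 1.34 FPKM in JOA libraries. Library 1 was the lowest and library 3 the highest of each group, and within a number the JOA value was 2.15, 1.66 and 2.52 times the control value. As multiples of the smallest value, corrected for relative depth, they came to 1, 7.23 and 11.1 in control and 2.07, 10.3 and 32.3 with JOA. The log2 fold change was 0.74, with an SE of 0.76 and an adjusted p of 0.671 without the block, and an SE of 0.20 and an adjusted p of 0.0680 with it (limma). Without JOA library 3 the log2 fold change of FABP4 was 0.05, and without JOA library 1 it was 1.48.

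FABP5 went the other way. In THP-1 cells it was at 144, 139 and 145 FPKM in control and at 106, 125 and 131 FPKM with JOA, so that every JOA library lay below every control library. The ratio of means was 0.847 and the log2 fold change -0.25 (SE 0.08, adjusted p = 0.183 by limma without and 0.0590 with the block). JOA library 1 was the lowest, and without it the log2 fold change was -0.15. In MOLM-13 cells FABP5 was at 499, 408 and 420 FPKM in control and at 418, 408 and 405 FPKM in JOA libraries, where the groups overlapped (log2 fold change -0.10, 95% interval -0.30 to 0.09). GENCODE lists 13 pseudogenes of FABP5, of which 0 have a row in the table, and how reads shared with such copies were assigned is not stated, so the FABP5 level is uncertain.

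PLIN2 is found where lipid droplets are, and its protein is stabilized by them. In THP-1 cells it was at 27.2, 33.5 and 43.6 FPKM in control and at 36.8, 42.9 and 64.9 FPKM in JOA libraries, a ratio of means of 1.39. Each JOA library lay above its partner, by 1.35, 1.28 and 1.49 times, while control library 3 lay above JOA libraries 1 and 2. The log2 fold change was 0.45, with an SE of 0.23 and an adjusted p of 0.362 without the block, against an SE of 0.05 and an adjusted p of 0.00774 with it (limma), short of the fold threshold in both fits. In MOLM-13 cells PLIN2 was at 9.89, 11.8 and 9.62 FPKM in control and at 8.62, 12.4 and 11.0 FPKM with JOA, with a log2 fold change of 0.03 (95% interval -0.29 to 0.34).

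PPARG and PLIN2 placed the 6 THP-1 libraries in the same order, from control 1 through control 2, JOA 1, JOA 2 and control 3 to JOA 3. Their log2 values had a Pearson correlation of 0.975 over these 6 libraries, and those of FABP4 had one of 0.923 with PLIN2 and 0.855 with PPARG. The points share groups, replicate numbers and libraries. The 3 coefficients were picked from 45 pairs of genes after the values were seen and describe these libraries only. Without JOA library 3, the log2 fold change was 0.22 for PLIN2 and 0.25 for PPARG, and without control library 3 it was 0.63 for both.

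ABCA1 was the 1 gene of the 10 whose JOA values lay above all control values in both lines. Such values were found for 14.6% of all genes tested in THP-1 and 5.10% in MOLM-13 cells. The share of genes with them in both lines was not computed, so how unusual ABCA1 is cannot be said. In THP-1 cells it was at 0.518, 0.650 and 0.689 FPKM in control and at 0.928, 0.883 and 0.914 FPKM with JOA, 1.79, 1.36 and 1.33 times the control of the same number. The log2 fold change was 0.50 (SE 0.14, adjusted p = 0.136 by limma without and 0.0662 with the block), and between 0.39 and 0.57 with any 1 library left out. In MOLM-13 cells ABCA1 was at 0.383, 0.555 and 0.552 FPKM in control and at 1.07, 0.596 and 0.631 FPKM with JOA, a log2 fold change of 0.51 (SE 0.23, adjusted p = 1.00 by limma without and 0.493 with the block). JOA library 1 stood apart from the others in that line, and without it the log2 fold change was 0.27. The exact two-sided permutation test gave p = 0.1 in each line, the smallest this design allows.

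ABCG1 was near the smallest step of the table. In THP-1 cells it was at 0.0113, 0.0105 and 0.00396 FPKM in control and at 0.0160, 0.0202 and 0.0281 FPKM in JOA libraries, which did not overlap. As multiples of the smallest value, corrected for relative depth, these came to 3.02, 3.08 and 1 in control and to 4.09, 5.06 and 8.18 with JOA. Fitted among all genes not at 0 throughout, its log2 fold change was 0.16 (SE 0.07, adjusted p = 0.392 by limma). In MOLM-13 cells ABCG1 was listed at 0 in 4 of 6 libraries, with 0.00806 FPKM in control library 3 and 0.00395 FPKM in JOA library 3.

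Neither apolipoprotein passed the test for JOA. APOE was at 21.9, 26.0 and 26.8 FPKM in control and at 20.7, 22.7 and 28.1 FPKM in JOA libraries of THP-1 cells (log2 fold change -0.07, 95% interval -0.35 to 0.21). In MOLM-13 cells it was at 0.0567, 0.365 and 0.503 FPKM in control and 0.443, 0.262 and 0.194 FPKM with JOA, where the pairs went in both directions (log2 fold change 0.13, 95% interval -0.97 to 1.24). APOC1 was at 11.8, 10.9 and 13.9 FPKM in control and 9.93, 12.0 and 13.4 FPKM with JOA in THP-1 cells (log2 fold change -0.06, 95% interval -0.34 to 0.23). In MOLM-13 cells its values were 5.90, 6.21 and 7.62 FPKM in control and 8.44, 5.99 and 6.70 FPKM with JOA (log2 fold change 0.09, 95% interval -0.23 to 0.41).

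Across the genes past the filter in THP-1 cells, ABCA1 was higher and FABP5 lower without overlap, where 23.4% of all genes tested did not overlap, 14.6% higher and 8.81% lower. PPARG, FABP4, PLIN2 and ABCA1 were higher in 3 of 3 pairs, as were 29.3% of genes, and FABP5 was lower in 3 of 3 pairs, as were 19.4%. In MOLM-13 cells ABCA1 was the 1 gene past the filter without overlap, in a line where 9.65% of genes did not overlap, 5.10% higher and 4.55% lower. ABCA1 was there higher in 3 of 3 pairs, as were 18.5% of genes, and FABP5 lower in 3 of 3 pairs, as were 15.7%, though its ratio in pair 2 was 0.999.

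**Figure D3:**
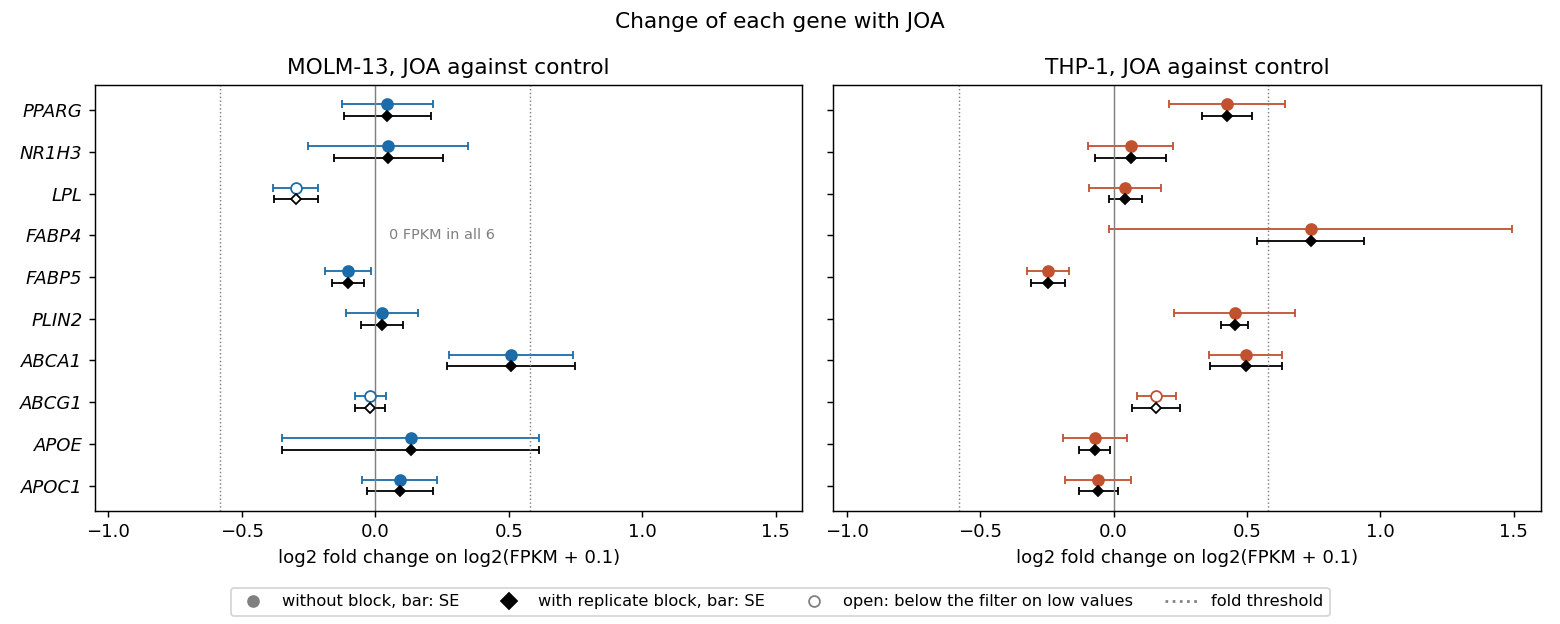
Log2 fold change of JOA against control on the log2(FPKM + 0.1) scale for each gene, in MOLM-13 (left) and THP-1 cells (right), with circles for the fit without and diamonds for the fit with the replicate block, bars of 1 SE, open symbols for genes below the filter and dotted lines at the fold threshold of 0.58. The estimates of the 2 fits coincide, while the bars of PPARG, FABP4 and PLIN2 in THP-1 cells are shorter with the block.

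The difference of the JOA effect between the lines was tested as an interaction over all 12 libraries. Of the 10 genes, 0 passed an adjusted p under 0.05 by limma, against 0% of 12626 genes tested, and 0 passed with the block, against 0.0475% of genes. The THP-1 minus MOLM-13 difference in log2 fold change was 0.43 for PLIN2 (adjusted p = 0.840 by limma without and 0.129 with the block). It was 0.38 for PPARG (adjusted p = 0.852 without and 0.313 with the block) and 0.74 for FABP4 (adjusted p = 0.927 without and 0.251 with it). For ABCA1 it was -0.01 (95% interval -0.62 to 0.59), and it turned to 0.20 under quantile normalization. Since 0.5 μM was given to one line and 2 μM to the other, an effect of dose cannot be told apart from one of the line.

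Sequence upstream of ABCA1 and PLIN2 is shown because ABCA1 is the gene whose values separated in both lines and PLIN2 the one of the 10 with the smallest adjusted p under the block in THP-1 cells. All stretches are from RefSeq promoters on GRCh38.p14, on the minus strand, written 5′ to 3′ as transcribed. The ABCA1 stretch of 168 bases at chr9:104928238-104928405 lies before the first exon of the GENCODE model, and the 2 sites of 30 bases, at chr9:104928202-104928231 for ABCA1 and chr9:19127544-19127573 for PLIN2, lie within the first exon of a GENCODE transcript of each gene and before the start in RefSeq. The PLIN2 site is inside the span given above for that gene, since other transcripts of PLIN2 start further upstream. Capitals mark an E-box, CACGTG, in the ABCA1 stretch and the PLIN2 site. In the ABCA1 site they mark a direct repeat, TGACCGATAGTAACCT, which reads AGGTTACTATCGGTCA on the opposite strand.
ABCA1 upstream: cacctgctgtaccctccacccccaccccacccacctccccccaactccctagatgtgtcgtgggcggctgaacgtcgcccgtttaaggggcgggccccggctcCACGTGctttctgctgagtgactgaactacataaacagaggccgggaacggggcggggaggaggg
ABCA1 direct repeat: caggcttTGACCGATAGTAACCTctgcgct
PLIN2 E-box: gctgccgcgggtCACGTGctgcggaggctt

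A direct repeat of half-sites with a gap of 4 bases is the textbook element of an LXR with its retinoid partner, and a gap of 1 base that of a PPAR. They were searched on both strands as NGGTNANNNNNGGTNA and NGGTNANNGGTNA, in windows of 300 bases around RefSeq starts, of which 16 belonged to 6 of the 10 genes. The first was found at -69 to -54 before the ABCA1 start, counted from -1 at the last base before it, and in 0.624% of 35116 windows. The second was found in 0.709% of windows and in none of these genes. The E-box lay at -147 to -142 in ABCA1 and at -69 to -64 in PLIN2, and 7.26% of windows hold one. A match describes letters in a window and is not evidence of binding.

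Other genes of the pathway were read from the same fits, as 6 lists: lipid receptors and their coregulators, other LXR targets, other PPAR targets, lipoprotein uptake, lipid droplets, and fatty acid transport. In MOLM-13 cells 0 genes of any list passed an adjusted p under 0.05 in either fit. In THP-1 cells 0 genes were called with the fold threshold, and several passed an adjusted p under 0.05 alone with the block, the criterion that 5.37% of all genes met upward and 2.69% downward. The medians below are set against a median log2 fold change of 0.02 over all genes in THP-1 and 0.01 in MOLM-13 cells.

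The other PPAR targets leaned upward in THP-1 cells. All 7 that passed the filter, of 10 listed, had a log2 fold change above 0, with a median of 0.23, and 2 passed with the block. These were CPT1A, which admits fatty acids to the mitochondria for oxidation (20.4 ± 2.05 to 24.7 ± 1.35 FPKM, SD, n = 3, log2 fold change 0.28, adjusted p = 0.143 by limma without and 0.0250 with the block), and SLC25A20, the carnitine carrier of the same route (log2 fold change 0.36, adjusted p = 0.234 by limma without and 0.0265 with the block). CD36, a scavenger receptor and fatty acid transporter, went from 5.09 ± 0.220 to 5.97 ± 0.411 FPKM without overlap (log2 fold change 0.23, adjusted p = 0.189 by limma without and 0.0570 with the block). In MOLM-13 cells the median of the 7 genes past the filter was 0.12, and 6 of them were above 0, so an upward lean was not particular to THP-1 cells. The share of all genes above 0 was not computed.

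The other LXR targets leaned downward in THP-1 cells, with a median of -0.11 over 9 genes past the filter of 13 listed, 6 below 0 and 4 lower at an adjusted p under 0.05 with the block. MYLIP, a ubiquitin ligase that removes the low-density lipoprotein receptor, went from 6.58 ± 0.672 to 5.45 ± 0.609 FPKM without overlap (log2 fold change -0.27, adjusted p = 0.247 by limma without and 0.0320 with the block). The other 3 were SREBF1, the transcription factor of fatty acid synthesis (log2 fold change -0.38, adjusted p = 0.00876 with the block by limma), SCD, the fatty acid desaturase (log2 fold change -0.28, adjusted p = 0.0107), and APOC2, the cofactor of LPL (log2 fold change -0.23, adjusted p = 0.0439). Without the block their adjusted p was 0.270, 0.634 and 0.330. LPCAT3, which remodels membrane phospholipid, had a log2 fold change of 0.05 without overlap (adjusted p = 0.505 with the block). In MOLM-13 cells the median over 10 genes was 0.12, and 8 of them were above 0. Among members that are LXR targets, the log2 fold change in THP-1 cells was 0.50 for ABCA1, 0.16 for ABCG1, near the smallest step of the table, and -0.07 for APOE. A part of the LXRs in these values was not tested.

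Genes of lipoprotein uptake and lysosomal cholesterol release went both ways in THP-1 cells, with 2 of 9 higher and 1 lower with the block and a median of 0.08. NPC2, which carries cholesterol out of the lysosome, went from 27.6 ± 5.25 to 39.6 ± 2.65 FPKM (log2 fold change 0.53, adjusted p = 0.103 by limma without and 0.0180 with the block). Its partner NPC1 had a log2 fold change of 0.32 (adjusted p = 0.236, and 0.0590 with the block). LIPA, the lysosomal acid lipase, differed in log2 by 0.27 (adjusted p = 0.149 by limma without and 0.0283 with the block). VLDLR, a lipoprotein receptor, differed by -0.30 (adjusted p = 0.0698 by limma without and 0.0203 with the block). In MOLM-13 cells NPC2 had a log2 fold change of 0.26 and overlapping values, and the list a median of 0.08.

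Of 18 lipid droplet genes past the filter in THP-1 cells, NCEH1, which hydrolyses cholesteryl ester, was the 1 that passed with the block (6.29 ± 0.513 to 7.74 ± 0.0981 FPKM, log2 fold change 0.30, adjusted p = 0.105 by limma without and 0.0315 with the block), and the median was 0.07. LPIN3, a phosphatidate phosphatase, went from 0.0683 ± 0.0147 to 0.152 ± 0.0527 FPKM in MOLM-13 cells without overlap. Its log2 fold change there was 0.56, on a scale that understates the change of such low genes, and -0.08 in THP-1 cells. The study, with DESeq, names LPIN3 as significantly higher with JOA in MOLM-13 cells, where it was not called here. Of 9 fatty acid transport genes in THP-1 cells, with a median of 0.17, ACSL1 passed with the block. ACSL1, which couples fatty acids to coenzyme A, went from 9.63 ± 0.717 to 14.2 ± 2.55 FPKM (log2 fold change 0.54, adjusted p = 0.0884 by limma without and 0.00804 with the block). In MOLM-13 cells ACSL1 went from 21.6 ± 1.45 to 24.7 ± 1.19 FPKM, also without overlap. All 8 genes of this list past the filter were above 0 in that line, with a median of 0.07. SLC27A1, a fatty acid transporter, had a log2 fold change of 0.40 without overlap in THP-1 cells (adjusted p = 0.155 with the block).

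Among 12 lipid receptors and coregulators past the filter in THP-1 cells, 0 passed in either fit and the median was -0.02. The values of the coactivator PPARGC1A were lower with JOA without overlap (log2 fold change -0.36). SREBF1, SCD, APOC2, SLC25A20, LIPA and VLDLR were named after their values were seen.

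**Figure D4:**
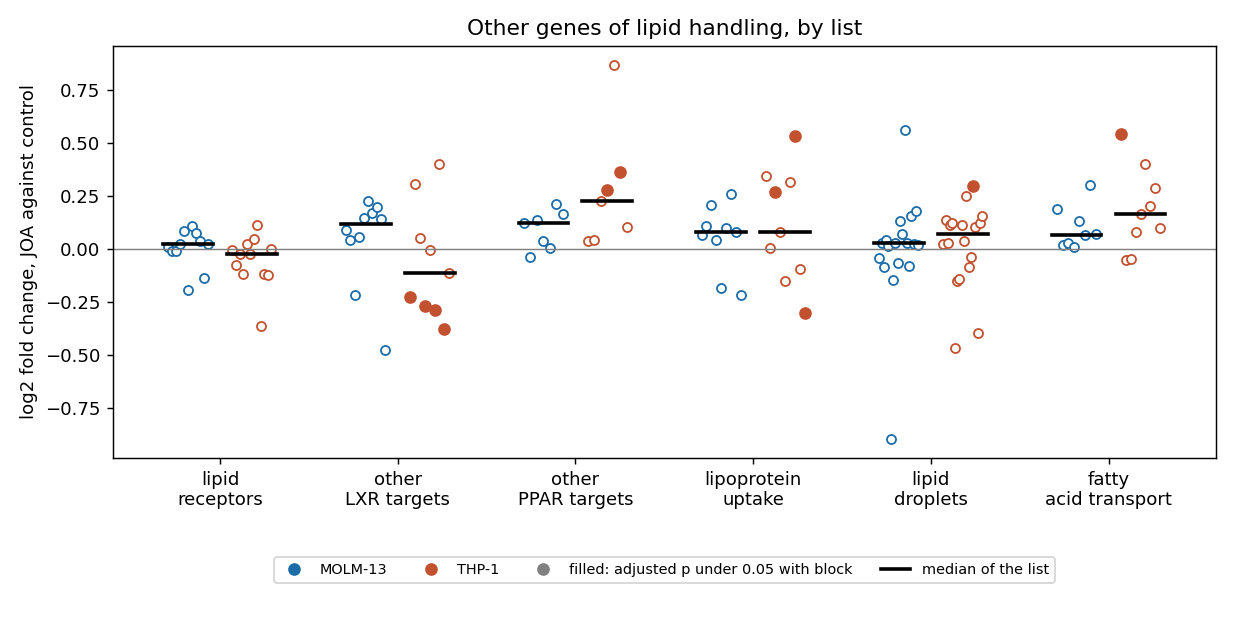
Log2 fold change of JOA against control for the genes of each list that passed the filter, MOLM-13 in blue and THP-1 in orange, with filled points for an adjusted p under 0.05 with the replicate block and black bars for the median of the list. All 7 points of the other PPAR targets lie above 0 in THP-1 cells, and 6 of 7 do so in MOLM-13 cells. The 4 filled points of the other LXR targets, in THP-1 cells, lie below 0.

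Of the 12 markers of the monocytic lineage, 5 were higher and 2 lower with JOA in THP-1 cells at an adjusted p under 0.05 with the block. That criterion was met upward by 5.37% and downward by 2.69% of all genes tested. The log2 fold change was above 0 for 8 of the 12 markers and below 0 for 4. ITGAM, the CD11b integrin, went from 3.94 ± 0.982 to 6.39 ± 0.419 FPKM (log2 fold change 0.71, adjusted p = 0.103 by limma without and 0.0348 with the block). CD68, a lysosomal protein of macrophages, differed in log2 by 0.36 (adjusted p = 0.0755 by limma without and 0.0254 with the block). MPO, a granule enzyme of immature myeloid cells, differed by -0.64 (adjusted p = 0.399 by limma without and 0.00659 with the block). CD4 was the 1 marker lower without overlap (43.7 ± 1.67 to 37.2 ± 2.49 FPKM, SD, n = 3). The means of LYZ and CSF1R were also lower, with overlapping values. CD4, LYZ and CSF1R were named after their values were seen. In MOLM-13 cells the log2 fold change was 0.39 for ITGAM, 0.38 for CD68 and -0.14 for MPO, and 0 of the 12 markers passed. There 10 of the 12 were above 0 and 2 below. Without overlap, 4 were higher and 0 lower with JOA, where 5.10% of all genes tested were higher and 4.55% lower. The part of these markers in the values of PLIN2, PPARG and the other lipid genes was not tested.

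The genes whose pattern was most like that of a member were searched among 9239 genes with a mean of at least 1 FPKM in both lines, over the 12 libraries after the mean of each line was subtracted. For PLIN2 these were KIAA0232 (Pearson r of 0.925), CDK17 (0.911) and CHURC1 (0.893). For FABP5 they were NME1-NME2 (0.940), ATP5MC1 (0.931) and THAP12 (0.928), and for APOC1 they were IER5 (0.899), TLK2 (0.888) and APOC2 (0.868). The libraries share lines, groups and replicate numbers, and these coefficients are the highest of many.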

How the data were processed

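mRNA-seq was performed on MOLM-13 and THP-1 cells after 48 h with JOA or DMSO, with 3 libraries in each of 4 groups. The authors deposited 1 table of FPKM values for all libraries, from stranded mRNA libraries read at both ends. The submitters' processing notes name Trimmomatic, HISAT2, Cufflinks, HTSeq and the build hg38, with no role or version, and the annotation is not given in the sources used here. The table had 20030 rows, 3488 of them at 0 throughout and 27 with a date in place of a gene name.

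FPKM values were taken as deposited, as log2(FPKM + 0.1). JOA was compared with control in each line, and THP-1 with MOLM-13 control libraries, by limma 3.58.1 (R 4.3.3), with lmFit and a trended eBayes, over all genes with a mean of at least 0.1 FPKM in the libraries fitted. Called genes had an adjusted p (Benjamini-Hochberg) under 0.05 and a log2 fold change of 0.58 or more in size, and for the interaction the adjusted p sufficed. Genes below the filter were fitted among all genes with any value above 0. Exact two-sided permutation tests used scipy 1.17.1 in Python 3.11.15. The count model of the authors, DESeq, was not run on FPKM.

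The replicate numbers come from the sample labels. Same-numbered libraries deviated together from their group means (r of 0.264 to 0.398 in MOLM-13 and 0.139 to 0.319 in THP-1 cells), and differently numbered ones gave -0.259 to 0.0168. Deviations within a group sum to 0, so the second range follows in part from the first and is no separate sign of pairing. The numbers were taken, as an assumption, to pair control with JOA libraries. Each fit was repeated with the number as a block. Relative depth, from the steps between low values, was 0.866 to 1 of control library 1 in MOLM-13 and 0.939 to 1.10 in THP-1 cells. Libraries were simulated with 200 changed genes, with and without 50% of the variance shared by replicate number, and fitted with and without the block. In the MOLM-13 simulations (11629 to 11633 genes), limma recovered 88 to 95% of the genes changed by 1 and 98 to 100% of those changed by 2 on the log2 scale, with 0 to 3 false calls. In the THP-1 simulations (12619 to 12644 genes) it recovered 84 to 94% and 96 to 100%, with 1 to 5 false calls. The changed genes were drawn from those with a mean log2(FPKM + 0.1) above that of 1 FPKM. Smaller changes were not simulated, nor were changes of genes below that level, such as ABCA1 in both lines. The recovery does not apply to such genes.

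The genes and lists were chosen with earlier results of these data known. From each list the text names genes called in either fit, then the 2 with the largest change without overlap, and for members above 1 FPKM in both lines the 3 most correlated genes. Positions are from GENCODE 29, and promoters from RefSeq. Alternatives covered the pseudocount, the filter, 3 rescalings, eBayes without a trend, the block, a fit over 12 libraries, the thresholds, and leaving out each library.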

Additional observations from a re-analysis of the deposited data

How the results depend on the processing

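Low values limit most of these results: FABP4, ABCG1 and, in MOLM-13 cells, LPL and APOE rest on a few steps of the smallest value, and their fold changes depend on the pseudocount. No member was called for JOA in either line, nor for the interaction, under any single alternative that kept both thresholds, and leaving out 1 library gave 0 each time. With the replicate block, 0 members were called in each line, and with the replicate block and an adjusted p alone 2 were passed in THP-1 cells. Over all genes, 17 were called in THP-1 cells, 161 with the block, 8 with a pseudocount of 1, 56 in a fit over 12 libraries, 1 without a trend, 0 over genes with any value above 0, 38 by adjusted p alone, 241 by unadjusted p with the fold threshold, and 0 or 1 without any 1 library.

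Between the control lines, 8 members were called and 5 with a filter of at least 1 FPKM, which fewer members passed. With a pseudocount of 1 and under quantile normalization 7 were called, FABP4 being lost with log2 differences of 0.35 and 1.00, and 7 without THP-1 control library 3, where FABP4 fell below the filter. Control libraries of the 2 lines with the same number also deviated together, though less than within a line (correlation of deviations 0.0698 to 0.131, and -0.0794 to 0.0152 for different numbers). With the replicate block, 8 members were again called. The median of all genes between the lines was 0.06 as deposited, 0.14 as TPM and -0.03 under quantile normalization.

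Some signs turned. Under quantile normalization LPL in THP-1 cells became -0.00087 on the log2 scale, ABCA1 between the control lines -0.45, and its interaction 0.20. That interaction was also 0.0095 with a pseudocount of 1 and 0.015 as TPM, and the one of NR1H3 was -0.012 with the median of ratios. With 1 library left out, the log2 fold change in MOLM-13 cells ranged from -0.040 to 0.11 for PPARG, -0.16 to 0.35 for NR1H3, -0.089 to 0.17 for PLIN2, -0.45 to 0.52 for APOE and -0.044 to 0.20 for APOC1. In THP-1 cells it ranged from -0.088 to 0.20 for NR1H3, -0.096 to 0.14 for LPL, -0.19 to 0.024 for APOE and -0.16 to 0.059 for APOC1. The interaction ranged from -0.28 to 0.23 for NR1H3, -0.15 to 0.22 for ABCA1 and -0.59 to 0.38 for APOE. The causes of these shifts were not tested.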

Other observations

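Of the other receptors of these families, NR1H2, PPARD, RXRA and RXRB had mean levels above those of PPARG and NR1H3 in both control groups. PPARA was at 1.38 ± 0.164 FPKM (SD, n = 3) in MOLM-13 control cells, above both, and at 1.05 ± 0.0508 FPKM in THP-1 control cells, below PPARG and overlapping NR1H3. NR1H2, which encodes LXRβ, was at 34.0 ± 0.930 FPKM (SD, n = 3) in MOLM-13 control and 9.58 ± 0.568 FPKM in THP-1 control cells, a THP-1 against MOLM-13 log2 difference of -1.82 (adjusted p = 1.49e-07 by limma), the opposite sign to that of NR1H3. PPARD was at 5.15 ± 1.90 and 3.81 ± 0.415 FPKM in the same groups, and its values overlapped. RXRA, the retinoid partner, was at 11.6 ± 1.39 FPKM in MOLM-13 and 19.3 ± 3.43 FPKM in THP-1 control cells (log2 difference 0.71, adjusted p = 0.00153 by limma), and RXRB at 16.8 ± 0.447 and 16.2 ± 1.16 FPKM. RXRG was listed at 0 in every library. With JOA, the log2 fold change of NR1H2 was 0.09 in MOLM-13 and 0.03 in THP-1 cells, and its groups overlapped in both. These receptors were named after their values were seen.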
